A study of Macaca mulatta with 2 samples.

Results

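The subunits of the mitochondrial oxidative phosphorylation system were followed in cultured Sertoli cells of infant and pubertal rhesus macaques (Macaca mulatta). Members were all non-control probes on the array whose gene name follows the naming of nuclear subunits of complexes I to V. These were NDUF (with A, B, C, S or V and a number), SDH, UQCR, COX4 to COX8 and ATP5 names, together with the cytochrome genes CYC1 and CYCS. This gave 83 genes of 18841 named on the array, read by 120 of its 41000 probes. The matched name COX4NB is the older symbol of EMC8, a protein of the endoplasmic reticulum membrane complex and not a respiratory subunit. COX4NB was kept because the name fits the rule, as was ATP5S, a coupling factor found with complex V. NDUFAB1 falls outside the rule and is counted below among the complex I assembly and accessory genes. Of the 83 symbols, 76 matched a current macaque gene name, 12 of them through a synonym.

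RNA was hybridised to 2 two-colour Agilent arrays of a human whole-genome design, so macaque transcripts were read with human probes of 60 bases. Infant donors were males younger than 3 months. Pubertal donors, aged 18 to 22 months, had received pulses of gonadotropin-releasing hormone (GnRH) to start puberty, 1 every 3 h over 4 to 5 weeks, each lasting 2 min at 0.15 µg/min. All cultures, infant and pubertal alike, spent the 24 h before RNA was taken in follicle-stimulating hormone (FSH, 5 ng/ml) and testosterone (100 nM), so no untreated cells are among these samples and hormone treatment itself is not compared. On array 1 pubertal RNA carried the red dye Cy5 and infant RNA the green dye Cy3; on array 2 the dyes were swapped and the RNA came from other animals. Each array is thus 1 infant and pubertal pair. The p-values rest only on the spread between these 2 pairs, with each probe's spread drawn toward that of all kept probes.

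Oxidative phosphorylation takes electrons from NADH at complex I and from succinate at complex II, passes them through ubiquinone to complex III and through cytochrome c to complex IV, where oxygen is reduced, and uses the proton gradient built on the way to make ATP at complex V. Most subunits are encoded in the nucleus and imported, while a small core is encoded in mitochondrial DNA. Sertoli cells are the somatic cells that nurse germ cells in the seminiferous tubule; they are known for high glycolysis and for exporting lactate, which germ cells oxidise. None of the 26 names searched for the mitochondrially encoded subunits was on the array, so only nuclear subunits are described.

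Several genes are read by more than 1 probe, and the probes below are those set side by side further on. The complex I subunit NDUFV3 has 3 probes on human chromosome 21, plus strand, at chr21:43202103-43202162, chr21:43202066-43202125 and chr21:43196595-43196654 (human build hg17, as for every position here). The first and the second overlap in 23 bases, in capitals, and the third lies elsewhere in the gene.
NDUFV3 probe 1: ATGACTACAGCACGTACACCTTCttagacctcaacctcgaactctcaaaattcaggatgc
NDUFV3 probe 2: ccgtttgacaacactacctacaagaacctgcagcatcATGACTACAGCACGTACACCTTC
NDUFV3 probe 3: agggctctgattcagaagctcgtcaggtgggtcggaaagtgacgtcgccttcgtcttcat

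The complex V subunit ATP5J2 (subunit f of the membrane part) has 2 probes on the minus strand, aligned over chr7:98701497-98702378 and chr7:98700608-98702397. Each spans 1 or more introns, and their 19 shared bases, in capitals, continue into different sequence.
ATP5J2 first probe: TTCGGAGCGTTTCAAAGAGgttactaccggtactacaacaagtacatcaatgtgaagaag
ATP5J2 second probe: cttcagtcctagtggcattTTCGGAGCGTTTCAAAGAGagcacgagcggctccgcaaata

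SDHA, the flavoprotein of complex II, has probes at chr5:304151-304210 and, across an intron, chr5:288411-289558, both on the plus strand. They share no run longer than 5 bases.
SDHA first probe: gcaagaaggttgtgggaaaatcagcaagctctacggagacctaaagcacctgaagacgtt
SDHA second probe: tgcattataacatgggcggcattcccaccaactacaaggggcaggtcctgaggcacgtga

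NDUFA9, an accessory subunit of complex I, has probes that lie across introns of the plus strand at chr12:4664700-4666371 and chr12:4647936-4649211, again with no shared run longer than 5 bases.
NDUFA9 first probe: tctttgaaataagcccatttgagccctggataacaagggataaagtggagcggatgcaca
NDUFA9 second probe: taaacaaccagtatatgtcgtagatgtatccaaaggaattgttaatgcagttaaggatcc

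Of the 119 member probes with a position, 37 cover more than 60 bases of the genome and so lie across an intron. Many of these genes, SDHA, SDHD, CYCS and COX7A2 among them, have near-identical copies or processed pseudogenes in primate genomes, and a 60-base probe cannot always tell a gene from such a copy.

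A probe was kept if the same group, pubertal or infant, was well above background on both arrays. Of the member probes 113 were kept, for 82 of the 83 genes. COX7C, a small subunit of complex IV, was read by 1 probe that was not well above background in any of the 4 channels. The brightest kept probe stands for a gene. On that basis 80 of the 82 genes were well above background in all 4 channels, against 91.7% of all genes; the exceptions, COX4I2 and COX7B2, missed it in the infant channel of array 1. A saturated spot was found for 6 of 82 member genes, against 2.23% of all genes, and in each case the saturated channel was Cy5: on both arrays for ATP5E, ATP5G3, NDUFS5 and UQCRQ and on array 1 alone for ATP5A1 and ATP5L. A saturated channel reads lower than its true level.

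No member differed between infant and pubertal cells by the test used. limma's moderated test on the 2 ratios called 0 of 25768 kept probes (0%) at an adjusted p under 0.05, and 1043 (4.05%) had an unadjusted p under 0.05. None of the 113 member probes was among those 1043. Every member named below had an adjusted p of 1 in limma's test, and the standard errors (SE) are the moderated ones over the 2 arrays. The SE draws on a variance pooled over all kept probes (4.33 prior against 1 residual degree of freedom). Close ratios on the 2 arrays therefore do not give a small SE. With 2 pairs an exact sign-flip test cannot go below a p of 0.5.

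After loess the subunits sat close to equal levels in the median on each array. Ratios are log2 pubertal over infant, so 1 is a doubling and 0 is no difference. The members' median ratio was 0.13 on array 1 and 0.03 on array 2, against 0.05 and -0.03 over all 19611 genes (a probe with no gene symbol counts as a gene of its own); with median centring in place of loess the members' medians became 1.25 and -0.72, where those of all genes were 0.63 and -0.42. The mean ratio of the 2 arrays ran from -0.29 for COX6C to 0.53 for NDUFB9. The median size of the mean ratio, sign aside, was 0.13 in members, 0.17 in all genes and 0.20 in the 11353 other genes of the members' intensity range. The 95% interval of the mean lay inside a 2-fold difference for 71 of 82 members (86.6%), against 69.7% of all genes and 62.6% of those in the same intensity range. Opposite ratios on the 2 arrays cancel in a mean. Neither its size nor its interval therefore shows that a gene's ratio was small on each array.

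Signs on the 2 arrays split as follows. On both arrays 27 of 82 members (32.9%) were higher in pubertal cells, where 23.5% of all genes were, and 7 (8.54%) were lower, where 21.9% of all genes were. The other 48 (58.5%) had opposite signs, as did 54.6% of all genes. With median centring 2 were higher, 0 were lower, and 78 of the 82 were higher in Cy5 on both arrays, as were 68.3% of all genes, so these counts depend on the loess step. Of the 48 with opposite signs after loess, 30 were higher on array 1 and lower on array 2 (31.5% of all genes). That means higher in the Cy5 channel both times, and the other 18 were lower in Cy5 both times (23.2% of all genes). Dye and animal pair cannot be told apart in these counts. No member was 1.5-fold or more higher on both arrays, or 1.5-fold or more lower on both, where 1.59% and 1.22% of all genes were. A 2-fold difference on 1 or both arrays was reached by 2 of 82 members, against 10.5% of all genes: NDUFB9 on array 1 at 1.06 and NDUFA5 on array 2 at 1.32. Neither did so on the other array, where NDUFB9 read 0.00 and NDUFA5 read -0.39 with the opposite sign. NDUFB9 counts among the 27 by 0.0039 on array 2, which was -0.03 with no offset. Its second probe, which shares 30 bases with the first, read 0.86 on array 1 and -0.07 on array 2.

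**Figure D1:**
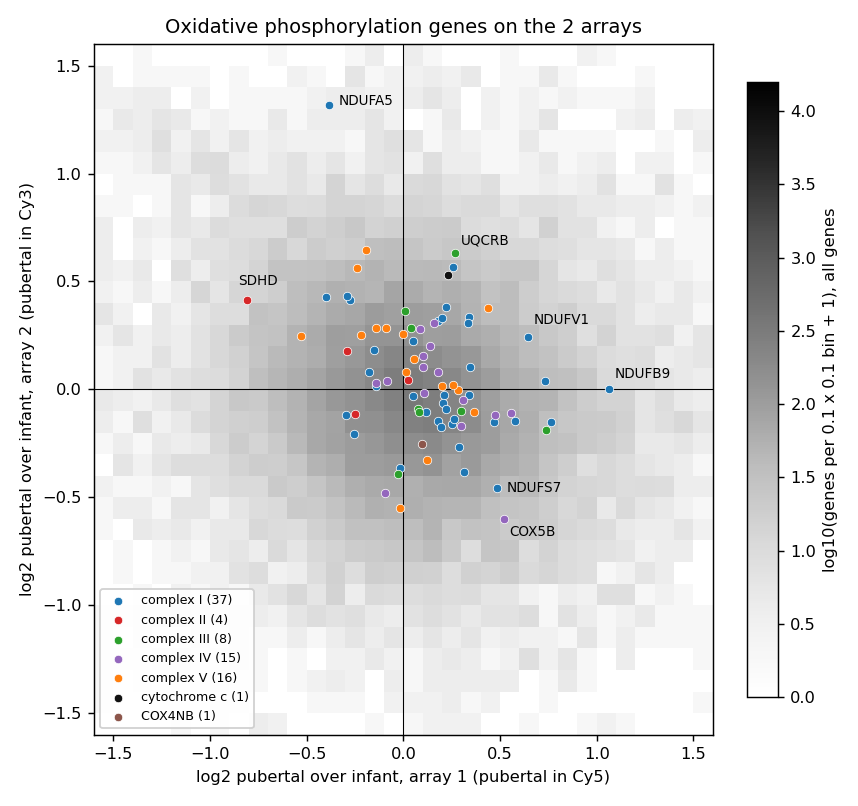
Log2 pubertal over infant ratio of each of the 82 measured member genes on array 1 (x axis) and array 2 (y axis), coloured by complex, over the density of all genes in grey (darker bins hold more genes). Axes stop at 1.6 either way, which leaves out 472 of all genes and no member. Members gather around 0 on both axes, with 27 at the upper right, 7 at the lower left and 48 where the signs are opposite.

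In bulk RNA from a culture, fewer cells of a type and less RNA per cell cannot be told apart. Markers of other cell types were read on the same arrays. Of 15 germ cell markers measured, 13 were above infant cells in both pairs, at a median of 0.73 on array 1 and 0.50 on array 2, and their summed level was 6715 in pubertal against 3693 in infant cells on array 1 and 6836 against 5549 on array 2. Of 12 stromal markers, 11 were below infant cells in both pairs, at a median of -1.30 on array 1 and -0.77 on array 2, and their summed level was 34596 against 86000 on array 1 and 48050 against 77590 on array 2. Of 15 Sertoli markers, 6 were higher on both arrays, 2 were lower and 7 had opposite signs, at a median of 0.42 on array 1 and 0.24 on array 2. Their summed level was 167784 against 194975 on array 1 and 209421 against 137888 on array 2, and 4 of the 15 had a saturated spot. Leydig markers were higher on both arrays for 1 of 8 and lower for 1, and peritubular myoid markers for 3 of 8 and 3. Macrophage markers were higher for 3 of 7 and lower for 1, endothelial for 2 of 5 and 1, erythroid for 2 of 4 and 2. Of all genes 23.5% were higher on both arrays and 21.9% lower. None of these markers passed limma's adjusted threshold, and the part of any cell type in the subunits' ratios was not tested.

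Complex I, the NADH dehydrogenase that feeds electrons into the chain, was measured through 37 genes. In pubertal cells 11 of 37 (29.7%) were higher on both arrays, 3 (8.11%) were lower and 23 (62.2%) had opposite signs. The shares of all genes, here and for the complexes below, were 23.5%, 21.9% and 54.6%. The flavoprotein subunits at the NADH-binding end gave the highest medians of the NDUF families, 0.58 on array 1 and 0.24 on array 2 over the 3 NDUFV genes. NDUFV1, which binds the flavin that accepts electrons from NADH, was named after its values were seen. Its log2 level, the normalised intensity of 1 channel, was 13.05 in pubertal and 12.40 in infant cells on array 1, and 12.64 and 12.40 on array 2. Pubertal cells were thus above infant cells in both pairs, by 0.64 and 0.24 (mean 0.44, SE 0.26, limma adjusted p = 1). NDUFV2, its iron-sulphur partner, read 13.49 and 13.23 on array 1 and 13.87 and 13.30 on array 2. It too was higher in both pubertal cultures, by 0.26 and 0.57 (mean 0.41, SE 0.25, limma adjusted p = 1). NDUFV3, a small accessory subunit of the same module, was higher only on array 1.

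The 3 NDUFV3 probes printed above gave one pattern. The overlapping pair read 0.58 and 0.64 on array 1 and -0.15 and -0.12 on array 2. The third probe, from a separate stretch, read 0.40 and -0.18. All 3 were thus higher in pubertal cells on array 1 and lower on array 2. That is higher in Cy5 both times, and dye and animal pair cannot be told apart here.

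The core subunit NDUFS1, which holds iron-sulphur clusters next to the flavin site, read 14.29 in pubertal and 13.95 in infant cells on array 1 and 14.19 and 13.88 on array 2. The ratios of 0.34 and 0.31 were close to each other (mean 0.32, SE 0.24, limma adjusted p = 1). Its second probe gave 0.96 on array 1 and 0.34 on array 2, so both probes were higher in both pubertal cultures and differed in size on array 1. NDUFC2, an accessory membrane subunit, had the closest pair of ratios among the complex I genes named here, 0.34 and 0.34, from levels of 14.22 and 13.88 on array 1 and 14.23 and 13.89 on array 2. Its mean was 0.34 (SE 0.24, limma adjusted p = 1).

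NDUFA9, needed for stability of the junction between the matrix and membrane arms, was higher in pubertal cells on both arrays by both probes. The first probe printed above gave 0.18 and 0.32 and the second gave 0.98 and 0.34. On array 2 the probes thus differed by 0.02, and on array 1 by 0.80. The authors' deposited table lists the second probe alone, at 1.06 and 0.35.

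The 3 complex I genes lower on both arrays were NDUFA11, NDUFB5 and NDUFA12, all accessory subunits. NDUFA11 read 12.07 in pubertal and 12.33 in infant cells on array 1 and 12.24 and 12.45 on array 2, a difference of -0.25 and -0.21 (mean -0.23, SE 0.24, limma adjusted p = 1). NDUFB5 differed by -0.30 and -0.12. NDUFA12 differed by -0.02 and -0.37 (mean -0.19). With median centring the means of NDUFA11, NDUFB5 and NDUFA12 became -0.03, -0.03 and 0.00. Those of NDUFC2, NDUFS1 and NDUFV2, higher on both arrays with loess, became 0.55, 0.54 and 0.61. Under that setting only 2 of 82 members were higher on both arrays, so a higher mean there does not show that the pairs agree.

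Within complex I the widest opposite signs were those of NDUFA5, NDUFS7 and NDUFB2. NDUFA5, an accessory subunit of the matrix arm, read 10.68 in pubertal and 11.06 in infant cells on array 1, and 10.59 and 9.27 on array 2. The infant culture of array 2 stood below the other 3 readings, but levels on different arrays also differ in dye and animals. The ratios were -0.39 and 1.32 (mean 0.47, SE 0.44, limma adjusted p = 1), a second probe gave -0.58 and 0.53, and the authors' deposited table lists the first probe at -0.24 and 1.24. NDUFS7, the core subunit that carries the last iron-sulphur cluster before ubiquinone, read 0.49 and -0.46, but its second probe read -0.02 and -0.28. NDUFB2, an accessory membrane subunit, read 0.76 and -0.15. The core subunits NDUFS3 and NDUFS8 of the matrix arm had opposite signs on the arrays as well, at 0.05 and -0.03 and at 0.29 and -0.27.

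**Figure D2:**
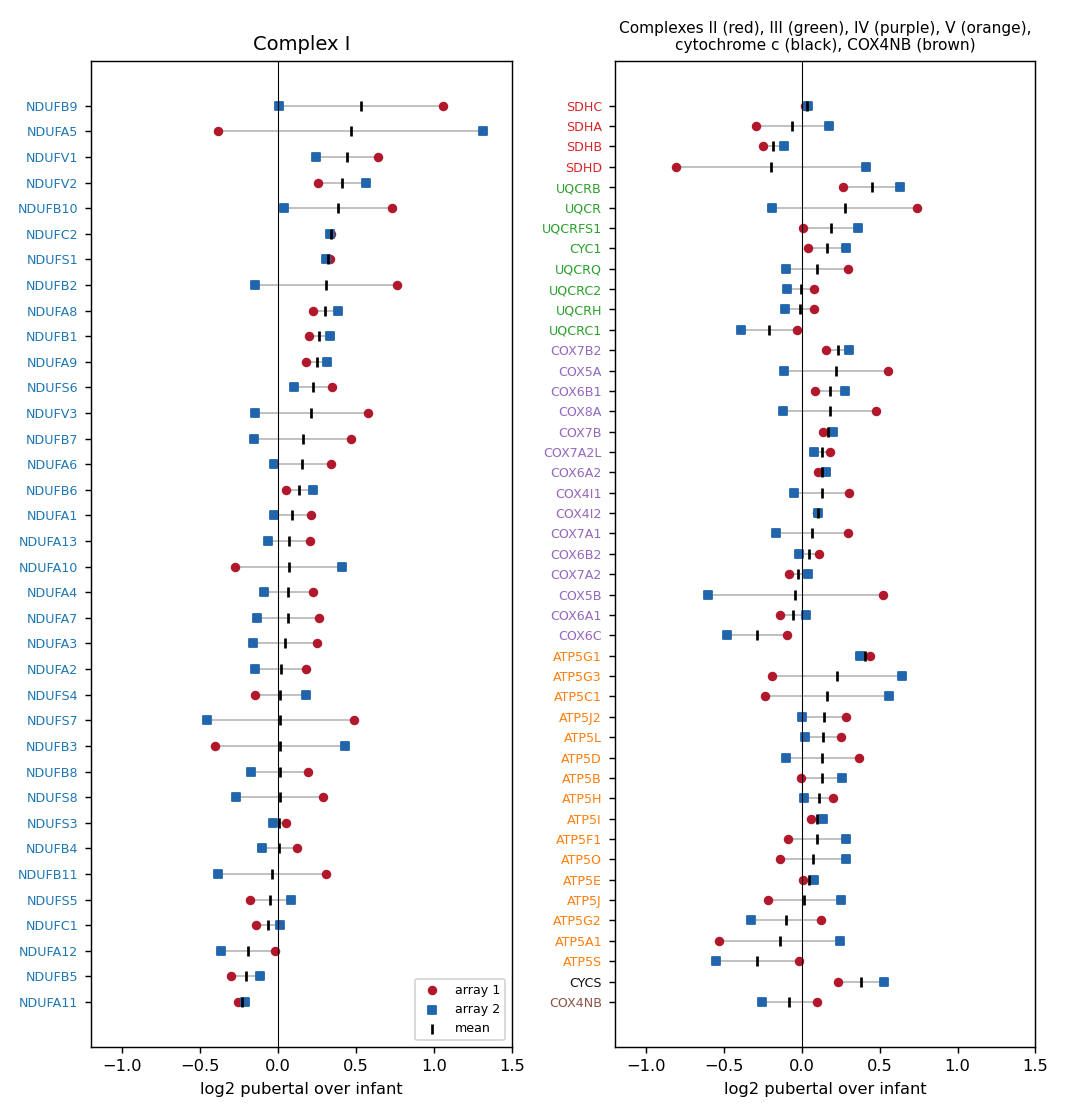
Log2 pubertal over infant ratio of the reported member genes (brightest kept probe) on array 1 (red circles) and array 2 (blue squares) with their mean (black bar), complex I on the left and the other complexes on the right, sorted by mean within a complex. Grey lines join the 2 arrays and cross 0 where the signs are opposite; NDUFA5 and SDHD have long lines that cross 0, and NDUFC2 and NDUFS1 have short ones above it.

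Complex II, succinate dehydrogenase, is shared with the citric acid cycle and has 4 subunits. SDHA, which oxidises succinate, read 12.64 in pubertal and 12.94 in infant cells on array 1 and 12.77 and 12.59 on array 2. Its ratios were -0.29 and 0.18 (mean -0.06, SE 0.26, limma adjusted p = 1). The second SDHA probe printed above, which reads a separate stretch, gave -0.34 and 0.22. SDHB, the iron-sulphur subunit, was lower in both pubertal cultures, at 11.26 against 11.51 and 11.79 against 11.90, or -0.25 and -0.11 (mean -0.18, SE 0.24, limma adjusted p = 1). Its mean was -0.0093 with median centring.

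The membrane anchors of complex II differed from each other in how far the arrays stood apart. SDHC had ratios of 0.02 and 0.04. SDHD was read by 4 probes, from -0.81 to -0.45 on array 1 and from 0.16 to 0.42 on array 2. All 4 were therefore lower in pubertal cells on the first array and higher on the second. The probes are not separate readings throughout, since a pair of them shares 50 bases. The 4 means lay between -0.20 and -0.12, and that of the brightest probe was -0.20 (SE 0.36, limma adjusted p = 1; -0.03 with median centring).

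Complex III, which passes electrons from ubiquinol to cytochrome c, was measured through 8 genes, of which 3 were higher on both arrays, 1 was lower and 4 had opposite signs. UQCRB, the ubiquinone-binding accessory subunit, read 8.01 in pubertal and 7.75 in infant cells on array 1 and 8.29 and 7.66 on array 2. Within each pair the pubertal reading was the higher, by 0.27 and 0.63 (mean 0.45, SE 0.25, limma adjusted p = 1). CYC1, the cytochrome c1 haem protein, differed by 0.04 and 0.29. UQCRFS1, the Rieske iron-sulphur protein, differed by 0.01 and 0.36, and its second probe was higher on both arrays too.

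Values for the core proteins of complex III, which resemble processing peptidases, were near or below 0. UQCRC1 differed by -0.03 and -0.39 (mean -0.21, 0.00 with median centring), and UQCRC2 by 0.08 and -0.09. The small subunits UQCR, UQCRQ and UQCRH, the last known as the hinge protein, were higher on array 1 and lower on array 2 by their brightest probes. Their ratios were 0.74 and -0.19, 0.30 and -0.10, and 0.08 and -0.10. A second UQCRH probe had the reverse signs, -0.10 and 0.03, so UQCRH gave no settled direction on either array. For UQCR the pubertal level was 12.95 against 12.21 on array 1 and 12.55 against 12.74 on array 2, so the pairs had opposite signs.

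Cytochrome c, the electron carrier between complexes III and IV that also triggers the caspase cascade when released, was read by 3 CYCS probes that disagreed. The brightest read 11.62 in pubertal and 11.39 in infant cells on array 1 and 12.20 and 11.67 on array 2, or 0.23 and 0.53 (mean 0.38, SE 0.25, limma adjusted p = 1). The second gave 0.40 and -0.02. The third was near background, with raw mean intensities from 62.6 to 89.0 in the 4 channels, and it gave -0.75 and -0.30. For that dim probe the scanner's own processed signals gave -3.05 and -2.33, and the authors' deposited table lists it at -3.16 on array 1 with array 2 blank. The size of its ratio therefore depended on the background correction, while the bright probe kept its sign (0.37 and 0.42 with the scanner's signals).

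Complex IV, cytochrome c oxidase, was measured through 15 genes, of which 6 were higher on both arrays, 1 was lower and 8 had opposite signs. All 15 had a 95% interval of the mean inside 2-fold. Opposite ratios cancel in the mean, so this includes COX5B at 0.52 and -0.60. Several of its subunits exist as isoforms used in different tissues. COX4I1, the common form of subunit 4, read 14.40 in pubertal and 14.09 in infant cells on array 1 and 14.31 and 14.36 on array 2, or 0.31 and -0.05 (mean 0.13, SE 0.25, limma adjusted p = 1). A second probe gave 0.46 and -0.21. COX4I2, the form known from lung and from low oxygen, was dim, with raw intensities from 68.4 to 112.9, and differed by 0.10 and 0.11; with the scanner's signals it read 1.16 and 0.29.

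COX6A1, the widely used form of subunit 6A, differed by -0.14 and 0.03 (second, dim probe 0.12 and -0.18), and COX6A2, the heart and muscle form, by 0.10 and 0.16. COX6B1 differed by 0.09 and 0.28, and COX6B2, its testis form, by 0.11 and -0.02. COX7A1, the heart and muscle form of subunit 7A, differed by 0.30 and -0.17, and COX7A2, the common form, by -0.08 and 0.04. COX7A2L, which takes part in joining complexes III and IV, differed by 0.18 and 0.08. In none of these pairs of isoforms did either gene reach an unadjusted p under 0.05, and no probe named COX8C was found.

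COX7B2, a form of subunit 7B known from testis, was the member most altered by the background correction in the upward direction. Its raw mean intensities were 94.7 in pubertal (Cy5) and 59.8 in infant cells (Cy3) on array 1, and 76.9 (Cy3) and 73.6 (Cy5) on array 2. With an offset of 50 added after correction the log2 levels were 6.44 and 6.28 on array 1 and 6.50 and 6.19 on array 2, and the ratios 0.16 and 0.31 (mean 0.23, SE 0.24, limma adjusted p = 1). With no offset the ratios were 0.51 and 0.82, and with the scanner's signals 1.92 and 1.21. The authors' deposited table lists 1.32 on array 2 and leaves array 1 blank. The infant channel of array 1 was not well above background, so the array 1 ratios are set against background and array 2 alone compares measured levels. The germ cell markers are given above, and their part in this value was not tested. COX7B, the common form, was well above background throughout and differed by 0.14 and 0.20.

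Of the remaining complex IV genes, COX6C was lower on both arrays, at 13.36 against 13.45 and 13.28 against 13.76, or -0.09 and -0.48 (mean -0.29, SE 0.25, limma adjusted p = 1; -0.08 with median centring). COX5B, a zinc-binding subunit, read 13.27 in pubertal and 12.76 in infant cells on array 1 and 12.90 and 13.50 on array 2. Its ratios of 0.52 and -0.60 had the widest gap within complex IV, and the mean was -0.04 (SE 0.34, limma adjusted p = 1). COX5A and COX8A were likewise higher on array 1 and lower on array 2, at 0.56 and -0.11 and at 0.48 and -0.12; a second COX5A probe was higher on both, at 0.38 and 0.05.

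Complex V, the ATP synthase, was measured through 16 genes, of which 5 were higher on both arrays, 1 was lower and 10 had opposite signs. In the catalytic head, the alpha subunit ATP5A1 differed by -0.53 and 0.25, the beta subunit ATP5B by 0.00 and 0.26 and the gamma subunit ATP5C1, the rotating shaft, by -0.24 and 0.56. All 3 were higher in the pubertal culture on array 2. On array 1 the pubertal channel of ATP5A1 was saturated, which leaves its direction there unsettled, and ATP5B was at 0.00, or 0.02 with no offset. ATP5D and ATP5E, the delta and epsilon subunits, read 0.37 and -0.10 and 0.01 and 0.08. The bright ATP5E probe was saturated in Cy5 on both arrays, and its second probe, which was not, gave -0.21 and -0.03.

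Subunit c of the proton-driven ring is encoded by 3 genes with one mature protein, ATP5G1, ATP5G2 and ATP5G3. ATP5G1 read 11.91 in pubertal and 11.47 in infant cells on array 1 and 12.24 and 11.86 on array 2. It was higher in both pairs by 0.44 and 0.38 (mean 0.41, SE 0.24, limma adjusted p = 1), the complex V gene with the largest difference shared by both arrays. ATP5G2 differed by 0.12 and -0.33. ATP5G3 differed by -0.19 and 0.65, with Cy5 saturated on both arrays, and its second probe was higher on both.

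The remaining genes counted with complex V, mostly of the stalk and membrane, had ratios from -0.55 to 0.29 by their brightest probes. ATP5O, which confers oligomycin sensitivity, differed by -0.14 and 0.29, ATP5F1 by -0.09 and 0.28, ATP5H by 0.20 and 0.01 and ATP5I by 0.06 and 0.14. ATP5L differed by 0.25 and 0.02. ATP5J differed by -0.22 and 0.25. A second probe of that name gave -0.08 and -0.27, but it is placed on the opposite strand to the first, so it may not read the ATP5J transcript. The ATP5J2 probes printed above, which continue into different sequence after their shared bases, gave 0.28 and 0.23 on array 1 and 0.00 and 0.05 on array 2. Their means differed by less than 0.01. ATP5S, a coupling factor found with the synthase, was lower on both arrays, at -0.02 and -0.55 (mean -0.28, SE 0.27, limma adjusted p = 1).

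Agreement between probes of a gene bears on how far single ratios can be read. In the 27 member genes with several kept probes the median range between probes was 0.19 on array 1, 0.15 on array 2 and 0.08 for the mean of the arrays. Over 4721 genes with several kept probes these were 0.33, 0.28 and 0.17. The means of the probes differed in sign for 6 of the 27, namely ATP5E, ATP5J, CYCS, NDUFA4, NDUFA5 and NDUFS7, against 1516 of 4721; for ATP5J the probes lie on opposite strands. NDUFA4, first assigned to complex I and later found with complex IV, gave 0.22 and -0.09 by one probe and -0.04 and -0.17 by the other. These comparisons of ranges are descriptions with no test.

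**Figure D3:**
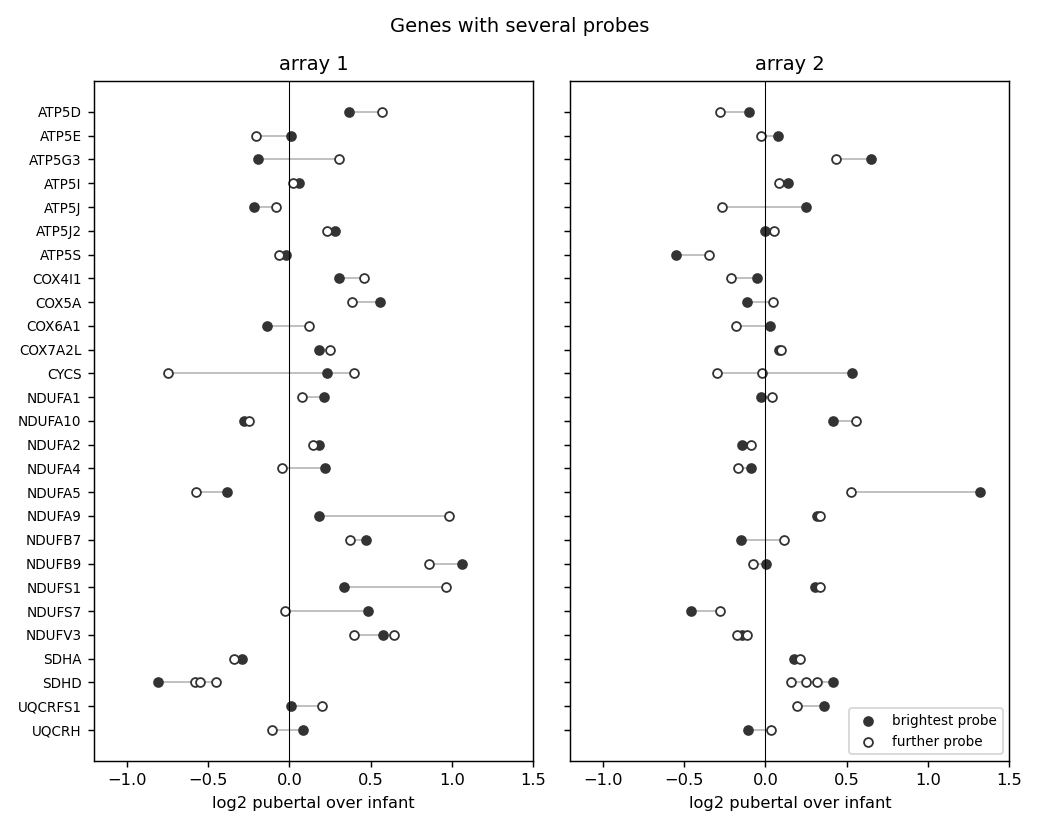
Log2 pubertal over infant ratio of every kept probe for the 27 member genes with several, on array 1 (left) and array 2 (right); filled points are the brightest probe of a gene, open points its further probes. SDHD's 4 probes all lie below 0 on the left and above 0 on the right, whereas NDUFA9 and NDUFS1 have probes well apart on array 1 and together on array 2.

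Dye balance was also set against the base composition of the probes. Since the dyes were swapped, the array ratios also give each gene's mean log2 Cy5 over Cy3. The 2 arrays held RNA of different animals, so dye and animal pair cannot be told apart in that value. Across the 82 members the Cy5 over Cy3 value had a Pearson correlation of 0.381 (Spearman 0.357) with the share of G and C in the probe. Across all genes it was 0.031 (0.041). The members share arrays, dyes and intensity range and are not independent replicates. Without NDUFA5 and SDHD, the lowest on that measure, the members' values were 0.349 and 0.331 (n = 80). Of the 19 members whose probes hold 50 to 60% G and C, 10 were higher in Cy5 on both arrays and 0 were lower in Cy5 on both, against 36.4% and 22.5% of all genes in that range. Of the 39 with 40 to 50%, 12 (30.8%) were higher and 13 (33.3%) lower, against 29.8% and 23.7% of all genes there. Of the 20 under 40%, 25% were higher and 25% lower, against 28.1% and 24.1%. Of the 4 with 60% or more, 75% were higher and 0% lower, against 43.3% and 17.1%. The mean ratio, in which the dyes are balanced, had a correlation of 0.020 with G and C content in the members. Across members the ratios of the 2 arrays had a Pearson correlation of -0.338 (Spearman -0.309), against -0.065 (-0.097) across all genes. The part of base composition in single ratios was not tested.

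**Figure D4:**
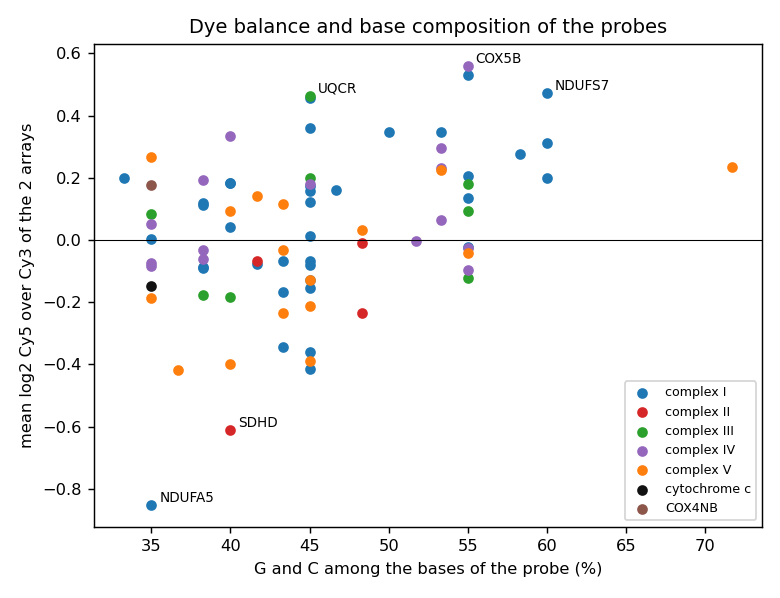
Mean log2 Cy5 over Cy3 of the 2 arrays (y axis) against the share of G and C in the bases of the probe (x axis, %) for the 82 measured member genes, coloured by complex. NDUFA5 and SDHD are lowest, at -0.85 and -0.61, and COX5B and NDUFS7 are among the highest, at 0.56 and 0.47. Dye and animal pair cannot be told apart in this measure.

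Of the 120 member probes 4 (3.33%) are in the authors' deposited table of differential expression, against 4848 of all 41000 probes (11.8%). They are the NDUFA5, NDUFA9, COX7B2 and CYCS probes described above. Of these, NDUFA9 alone has 2 values of the same sign there, NDUFA5 has 2 of opposite sign, and COX7B2 and CYCS have 1 value each.

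The genes that build and supply the respiratory chain were read in the same way, and limma called none of them. Over all genes 23.5% were higher on both arrays and 21.9% lower, to set beside the shares of these lists. Of 8 complex I assembly and accessory genes, 2 (25%) were higher on both arrays, 1 (12.5%) was lower and 5 had opposite signs. Of 19 assembly genes of complexes II to V, 4 (21.1%) were higher and 6 (31.6%) lower. C20orf44, an older name of the complex III assembly factor UQCC1, differed by -0.38 and -0.34 and the copper chaperone SCO1 by 0.14 and 0.46. Of 21 regulators of mitochondrial biogenesis, 5 (23.8%) were higher and 2 (9.52%) lower. POLG, the mitochondrial DNA polymerase, was higher by 0.69 and 0.46 (mean 0.58, SE 0.25, limma adjusted p = 1) and POLRMT, the mitochondrial RNA polymerase, by 0.37 and 0.43. Among genes of transcription factors known to act at promoters of many subunit genes, NRF1 was lower, at -0.47 and -0.16. Of the partners that form GABP, GABPB2 was lower, at -0.62 and -0.14, and the DNA-binding GABPA was higher, at 0.07 and 0.29. The coactivator PPARGC1A read -0.21 and 0.44.

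In the citric acid cycle and pyruvate entry, 7 of 26 genes (26.9%) were higher on both arrays and 3 (11.5%) were lower. PC, pyruvate carboxylase, was higher by 0.43 and 0.68 (mean 0.55, SE 0.25, limma adjusted p = 1) and IDH3A, a subunit of isocitrate dehydrogenase, by 0.32 and 0.67. IDH3G and PDK1, the latter an inhibitor of pyruvate dehydrogenase, were lower, at -0.33 and -0.14 and at -0.32 and -0.13. Of 29 other mitochondrial membrane proteins 7 (24.1%) were higher and 5 (17.2%) lower. The import proteins TIMM44 and TOMM40 were higher, by 0.57 and 0.45 and by 0.33 and 0.64, and the uncoupling protein UCP2 was lower, at -0.34 and -0.17.

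Mitochondrial ribosomal proteins, which translate the mitochondrially encoded subunits, were higher on both arrays for 21 of 74 genes (28.4%) and lower for 10 (13.5%). Their medians were 0.02 and 0.08. Of all genes 23.5% were higher on both arrays and 21.9% lower. Other large complexes were read as well. Proteasome subunits were higher for 7 of 37 (18.9%) and lower for 10 (27%). Cytosolic ribosomal proteins were higher for 1 of 76 (1.32%) and lower for 22 (28.9%), with medians of -0.43 and 0.18. Of these 76 genes, 61 had a saturated spot. The ribosomal ratios therefore rest mostly on saturated spots and give no level to set the respiratory subunits against.

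**Figure D5:**
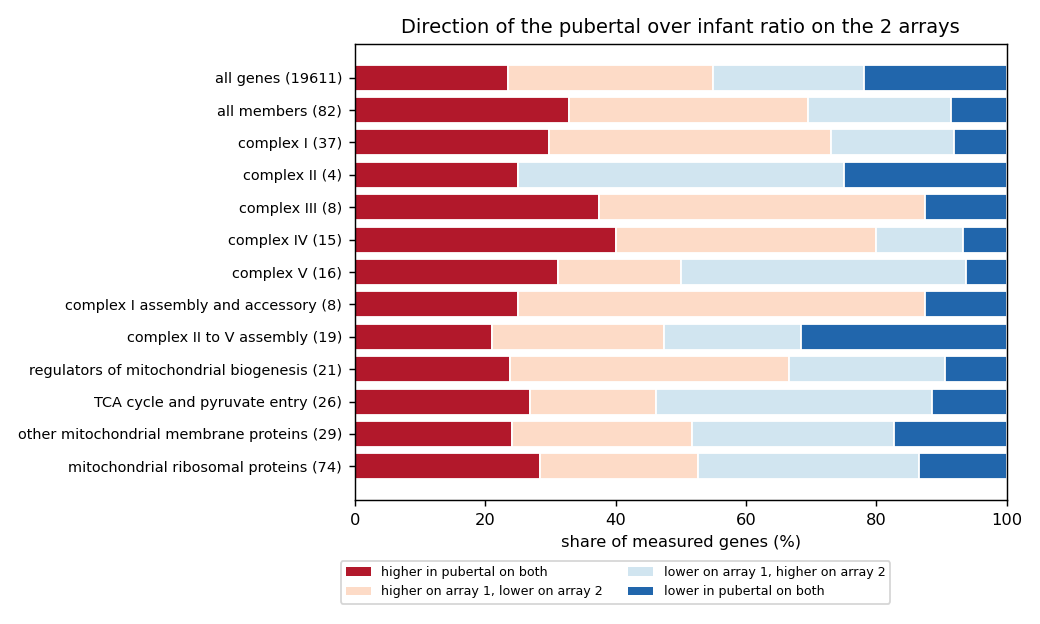
Share of measured genes (x axis, %) by the sign of the pubertal over infant ratio on the 2 arrays, for all genes, all members, each complex and the companion lists; the number of genes is in brackets. Members hold 32.9% higher on both (dark red) and 8.54% lower on both (dark blue), against 23.5% and 21.9% of all genes, and opposite signs (pale bars) make up 58.5%.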

How the data were processed

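Per the file headers, the 2 deposited scanner files hold spot intensity values in each dye and a log10 ratio, made on a design of build hg17, with 1 slide and 1 scan for both arrays. The submitters' processing notes name Agilent Feature Extraction, version 9.5.1.1. The authors' deposited table holds log2 ratios of probes they selected; how they were selected is not given in the sources used here. Other deposited columns used, per the file headers, are flags for background, saturation and outliers.

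Mean intensities were corrected with normexp (offset 50) and normalised by loess within each array in limma 3.58.1 (R 4.3.3), control spots having weight 0. Ratios were turned to pubertal over infant. Levels per channel came after loess and Aquantile. limma's lmFit and eBayes were run on the 25768 kept probes (1 residual and 4.33 prior degrees of freedom) with Benjamini-Hochberg adjustment; the script was tested on simulated data. The 4 channels had 59.7% to 73.8% of probes well above background; 2 arrays limit the precision.

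Genes were named by complex, by the size and agreement of their 2 ratios, as isoforms, for differing probes or for standing in the authors' table; NDUFV1 and a few others beyond that were chosen after their values were seen. Members and lists were chosen with earlier results of these data known. Alternatives were other background corrections, scalings, probe filters and probe averages, an intensity trend in limma and leaving out each array. Pubertal and infant RNA share an array, so each ratio is already a pair. No protein or promoter sequences were used here. The values of 1 member gene are counted in the totals but not reported here.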

Additional observations from a re-analysis of the deposited data

How the results depend on the processing

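No member was called under any alternative, whatever happened elsewhere: over all probes limma called 1 with no offset, 1 with median centring, 1 when all 4 channels had to be well above background and 9 with an intensity trend, and 0 under the other settings, while the lowest adjusted p of a member was 0.288 with the trend, 0.353 with the scanner's signals and 0.471 with no offset. With the scanner's signals 11 members rather than 7 were lower on both arrays, and 1 (COX7B2) differed by 1.5-fold or more one way in both pairs. Median centring moves all ratios of an array by 1 value, whereas the loess step varies with intensity. Under it 2 members were higher and 0 lower on both arrays, 78 were higher in Cy5 and 2 lower in Cy5. What the shift from loess comes from was not tested. All genes then had medians of 0.63 and -0.42, and the members' medians became 1.25 and -0.72. Relative to all genes that is 0.62 and -0.31, against 0.08 and 0.05 with loess.

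For 47 named members the mean of the 2 arrays gave 324 values under the planned settings, and only its sign was compared. That leaves out whether the arrays agree. With median centring 78 of 82 members were higher in Cy5 on both, and so had opposite signs. The sign of the mean was kept in 306 values and reversed in 18. With median centring these were NDUFA12 (0.0037), SDHA (0.15), UQCRC1 (0.0026), UQCRH (0.20), COX5B (0.16), ATP5A1 (0.070), COX6A1 (0.14) and COX7A2 (0.19). With the scanner's signals they were SDHC (-0.011), UQCRH (0.030), COX7A2 (0.012) and ATP5J (-0.036), and with no offset ATP5J (-0.0040). Averaging a gene's probes reversed NDUFS7 (-0.070), ATP5E (-0.035), ATP5J (-0.080) and NDUFA4 (-0.021), and dropping saturated probes reversed ATP5E (-0.12). The cause was not tested. Leaving out an array leaves 1 ratio and no test. A gene with opposite signs must then reverse for 1 of its values, and no other gene can. The 21 reversals among 94 such values therefore restate the signs on the 2 arrays. The ratios of these genes ran from -0.39 to 1.32 for NDUFA5, -0.46 to 0.49 for NDUFS7, -0.15 to 0.76 for NDUFB2, -0.81 to 0.42 for SDHD, -0.29 to 0.18 for SDHA, -0.19 to 0.74 for UQCR, -0.10 to 0.30 for UQCRQ, -0.10 to 0.082 for UQCRH, -0.60 to 0.52 for COX5B, -0.11 to 0.56 for COX5A, -0.12 to 0.48 for COX8A, -0.19 to 0.65 for ATP5G3, -0.24 to 0.56 for ATP5C1, -0.53 to 0.25 for ATP5A1, -0.051 to 0.31 for COX4I1, -0.14 to 0.029 for COX6A1, -0.018 to 0.11 for COX6B2, -0.17 to 0.30 for COX7A1, -0.084 to 0.040 for COX7A2, -0.22 to 0.25 for ATP5J and -0.090 to 0.22 for NDUFA4.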
